A study of Mus musculus with 4 samples.

Results

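High-mitochondrial barcodes are droplets in which transcripts of the mitochondrial genome make up a large part of the RNA that was captured. They were chosen in 4 single-cell RNA-seq libraries of mouse tumours as the barcodes with at least 1500 unique molecular identifiers (UMIs, each standing for 1 captured RNA molecule), at least 200 genes and more than 20% of UMIs from mt- genes, the genes of the mitochondrial genome. The members were thus chosen by their own measured mt- share, total UMIs and gene number, which are given below as a description. The rule found 325 members among 10030 barcodes of at least 1500 UMIs. The 2 Nanocapsule libraries held 116 and 107 members, and the 2 Control libraries held 56 and 46. The comparison barcodes had the same minimum of UMIs and genes and 1 to 10% mt- UMIs, and 7873 barcodes met that rule.

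The libraries came from tumours of C57Bl6 mice aged 6 to 8 weeks, were made with the 10x Genomics 3-prime v2 chemistry, and carry the treatment labels Nanocapsule and Control. The series title concerns enzyme nanocapsules in cancer immunotherapy, and the labels call the material cancer cells of a tumour. The labels name neither the tumour line, the enzymes, nor the animal behind each library, and no agent shared by both groups is named. All p-values below therefore measure only the spread between these 4 libraries, which may be technical.

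The mitochondrial genome encodes 13 proteins, all of them subunits of the respiratory chain or of ATP synthase, and the other subunits come from nuclear genes. The mt- transcripts lie inside the organelle, whereas other messengers lie in the cytosol and the nucleus. In droplet data a high mt- share is widely used to set aside cells that were damaged or dying, because cytosolic RNA escapes from a torn cell more easily than RNA enclosed in mitochondria. Dying was not measured in these libraries, and the members are called here by the rule that chose them. Of a list of 21 genes of apoptosis and p53 response, 4 had enough UMIs to be tested in members with pigment markers. None of the 4 passed in either direction, nor did any of 9 tested over all classes. The list cannot decide on dying, since most of its genes were not testable. Trp53, which is outside the list, fell in the pigment class, as given below.

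The members took up a larger part of the Nanocapsule libraries. They were 4.74% (95% exact Clopper-Pearson interval 3.93 to 5.65%) and 6.08% (5.01 to 7.30%) of the barcodes of at least 1500 UMIs in the Nanocapsule libraries, against 1.42% (1.08 to 1.85%) and 2.43% (1.79 to 3.23%) in the Control libraries. Both Nanocapsule values lay above both Control values. The mean was 5.41 ± 0.95% in Nanocapsule and 1.93 ± 0.71% in Control (SD, n = 2 each), a difference of 3.48 percentage points and a ratio of 2.80. The exact two-sided permutation test gave p = 0.333, which is the smallest value that 2 libraries against 2 can give. These intervals, and all others here, cover counting error only.

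The members were shallow barcodes. Their median total was 3456 and 3524 UMIs in the Nanocapsule libraries and 2159.5 and 2743.5 UMIs in the Control libraries, and the deepest member held 12870 UMIs. The groups did not overlap in this median. The median barcode of at least 1500 UMIs held 43073 and 49271 UMIs in the Nanocapsule libraries and 34666 and 34858 UMIs in the Control libraries. Among barcodes of 3000 to under 6000 UMIs, 20.9% and 19.0% were members in the Nanocapsule libraries and 4.27% and 5.33% in the Control libraries. Among barcodes of 1500 to under 3000 UMIs the groups overlapped, with 11.0% and 20% in the Nanocapsule libraries and 12.9% and 9.23% in the Control libraries. No barcode of 24000 UMIs or more was a member, which allows a share of up to 0.209% and 0.300% in the Nanocapsule libraries and 0.107% and 0.299% in the Control libraries. Within the depth range that holds all members, added after seeing their depths, the share averaged 14.0 ± 2.22% in Nanocapsule and 6.16 ± 0.67% in Control (SD, n = 2 each), so the groups stayed apart when the deep barcodes were left out.

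**Figure D1:**
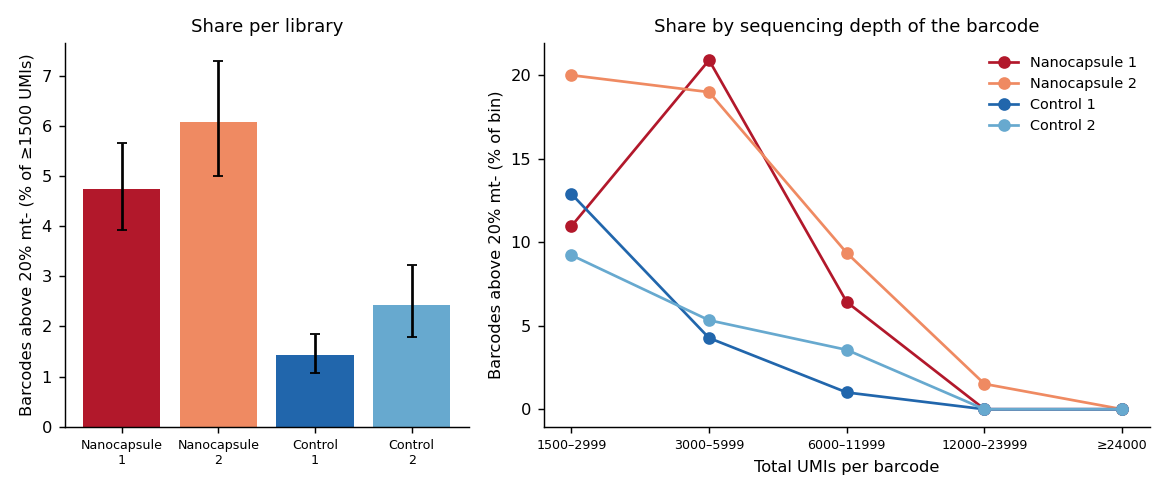
Left, share of high-mitochondrial barcodes among barcodes of at least 1500 UMIs in each library, with 95% exact binomial intervals; right, the same share by total UMIs per barcode. The Nanocapsule libraries stand at 4.74 and 6.08% and the Control libraries at 1.42 and 2.43%, and the share is at most 1.52% above 12000 UMIs in each library.

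The mt- share was spread over the whole range above the threshold. Of the members, 92 had an mt- share of 20 to 40%, 68 of 40 to 60%, 115 of 60 to 80% and 50 of 80 to 100%. The median was 57.2% and 69.9% in nanocapsule members and 62.4% and 50.9% in control members, and the groups overlapped. Just inside the threshold, 13 barcodes had an mt- share of 20 to 22%, and just outside it 14 barcodes had 18 to 20%. The median number of UMIs outside the mt- genes was 1151 and 947 in nanocapsule members and 802.5 and 1175 in control members, so the library groups overlapped in the RNA left for all other genes. Matched barcodes of the same total depth held medians of 3371 and 3719 such UMIs in the Nanocapsule libraries and 2032 and 2618.5 in the Control libraries. A total of 3 member barcodes also occurred among the barcodes of at least 1500 UMIs of another library, and 0 barcodes were members in both.

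The make-up of the mt- UMIs was compared between members and comparison barcodes drawn 1 to 1 within the library in bins of total UMIs, here called matched barcodes. The rule used the sum over the 13 mt- genes and not their proportions. Some neighbouring genes share sequence, such as mt-Nd4l (chrM:9877-10173) and mt-Nd4 (chrM:10167-11544), and 1 pair is shown here. The reading frames of mt-Atp8 (chrM:7766-7969, GRCm38, plus strand) and mt-Atp6 (chrM:7927-8607), both subunits of the membrane part of ATP synthase, overlap. The overlap is shown because UMIs from it cannot be split between the genes. It lies at chrM:7927-7969, and the capitals mark the start codon of mt-Atp6.
mt-Atp8 and mt-Atp6 overlap: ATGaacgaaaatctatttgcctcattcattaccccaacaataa

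The composition differed most for mt-Co1, the catalytic subunit of cytochrome c oxidase. It made up 15% and 15.1% of the mt- UMIs of nanocapsule members and 15.9% and 14.1% of those of control members, against 19.1% and 19.8% in nanocapsule and 21.4% and 19.2% in control matched barcodes. Members lay below matched barcodes in all 4 libraries with no overlap, as they did for mt-Co3 (8.49 ± 0.14% against 10.3 ± 0.60%, SD, n = 4 libraries) and for mt-Nd5, a complex I subunit (2.31 ± 0.23% against 2.92 ± 0.37%). The share of mt-Cytb, the only complex III subunit of the mitochondrial genome, was higher in members, at 13.5% and 12.9% in nanocapsule and 12.7% and 13.1% in control members, against 10.5% and 10.5% in nanocapsule and 11.5% and 11.8% in control matched barcodes. The shares of mt-Atp6 (18 ± 1.34% against 15.4 ± 1.15%), mt-Atp8 (5.40 ± 1.47% against 4.37 ± 1.79%), mt-Co2 (17.7 ± 1.05% against 16.2 ± 0.81%) and mt-Nd3 were also higher in members in 4 of 4 libraries. The overlapping mt-Atp8 and mt-Atp6 were thus both among those higher, whereas the overlapping mt-Nd4l and mt-Nd4 were higher in 1 and 2 of 4 libraries. Each of these 8 genes gave an exact two-sided sign-flip p of 0.13, the smallest that 4 libraries allow, or 0.203 after Benjamini-Hochberg (BH) adjustment over the 13 genes. On average over the 4 libraries, 2.02% of members and 43.9% of matched barcodes were of the immune class (classes are defined below). Within the pigment class alone, 5 of the 13 genes kept 1 direction in all 4 libraries. Among them were mt-Atp6, mt-Co2 and mt-Nd1 but not mt-Atp8. The directions of mt-Co1, mt-Co3, mt-Nd5 and mt-Cytb thus did not all hold within the pigment class. The marker mt-Nd1 was higher in 3 of 4 libraries (5.62 ± 0.72% against 4.89 ± 0.32%), and mt-Nd4 was near equal (3.02 ± 0.35% against 3.03 ± 0.41%). Between treatments, mt-Atp8 made up 6.82% and 6.49% of mt- UMIs in nanocapsule members and 3.99% and 4.28% in control members, and matched barcodes showed the same order, at 6.50% and 4.96% in nanocapsule and 2.29% and 3.75% in control.

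**Figure D2:**
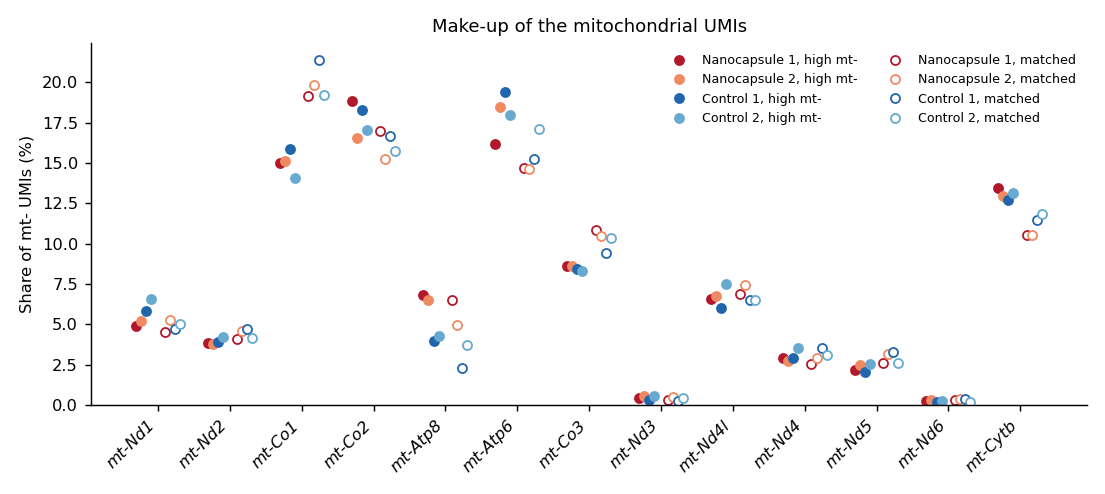
Share of each mt- gene in the mt- UMIs, genes in their order on the mitochondrial genome; filled points are high-mitochondrial barcodes and open points matched barcodes, 1 point per library. Over all classes, mt-Co1 and mt-Co3 lie lower and mt-Cytb higher in high-mitochondrial barcodes of every library. mt-Atp8 lies near 6 to 7% in nanocapsule members and near 4% in control members.

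Outside the mt- genes, a few nuclear genes held a large part of what was left. The genes of this paragraph and the next were chosen after their levels were seen. The most abundant was Gm42418 (chr17:39846958-39848788, GRCm38, plus strand), annotated as a long noncoding RNA. It took 11.5% and 14.2% of non-mt- UMIs in nanocapsule members and 7.34% and 8.43% in control members, against 2.57% and 3.07% in nanocapsule and 1.49% and 1.59% in control matched barcodes. RefSeq lists this name as a synonym of Rn18s-rs5, an 18S ribosomal RNA pseudogene. AY036118 (chr17:39847113-39848035) lies inside it on the other strand and Gm26917 (chr17:39843013-39846341) lies beside it, so that UMIs of Gm42418 and AY036118 cannot be told apart where strand use in counting is not stated. AY036118 took 2.70% and 3.22% in nanocapsule members and 0.721% and 1.84% in control members. Each of these shares lay above the matched share of every library, which reached 0.326% at most for AY036118.

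Lars2, the nuclear gene of the mitochondrial leucyl-tRNA synthetase, took 2.82% and 5.16% of non-mt- UMIs in nanocapsule members and 2.27% and 1.86% in control members, against 0.150% and 0.275% in nanocapsule and 0.165% and 0.191% in control matched barcodes. Gphn, which encodes the scaffold protein gephyrin, took 2.55% and 3.01% in nanocapsule members and 1.01% and 1.32% in control members, against 0.0921% and 0.119% in nanocapsule and 0.0529% and 0.0590% in control matched barcodes. The library shares of members and matched barcodes did not overlap for either gene. Camk1d, a calcium and calmodulin dependent kinase, took 1.05% and 1.21% in nanocapsule members and 0.340% and 0.441% in control members. Together 9 genes (Gm42418, Lars2, AY036118, Gphn, Cmss1, Cdk8, Camk1d, Gm26917 and Jarid2) held 25.6% and 32.0% of non-mt- UMIs in nanocapsule members and 14.4% and 17.1% in control members, against 4.06% and 5.08% in nanocapsule and 2.54% and 2.96% in control matched barcodes. The rise was broad across members: at least 1 Gphn UMI was found in 98.3% and 97.0% of nanocapsule members and 96.4% and 91.3% of control members, against 80.2% and 81.2% in nanocapsule and 51.8% and 69.6% in control matched barcodes, whose total depth was the same.

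The same genes were abundant in barcodes of 10 to 100 UMIs, which are mostly droplets without a cell. There the 9 genes held 18% and 22.9% of non-mt- UMIs in the Nanocapsule libraries and 14.2% and 18.4% in the Control libraries. Gm42418 took 10.2% and 14.8% of these near-empty barcodes in the Nanocapsule libraries and 9.29% and 12.5% in the Control libraries, so members were not above that level in 3 of 4 libraries. Camk1d took 0.332% and 0.377% in the Nanocapsule libraries and 0.141% and 0.430% in the Control libraries, which is below its share in the members of every library. The part of free RNA in the levels of members was not tested.

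**Figure D3:**
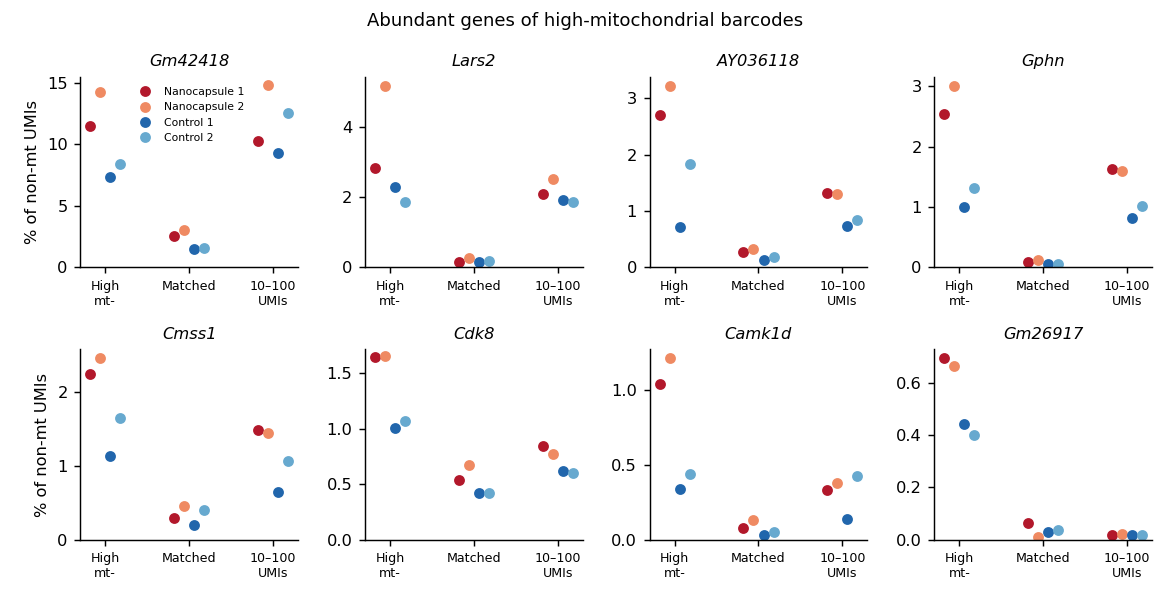
Share of 8 abundant nuclear genes in the non-mt- UMIs of high-mitochondrial barcodes, matched barcodes and barcodes of 10 to 100 UMIs, 1 point per library. For each gene the high-mitochondrial barcodes of a library lie above its matched barcodes, and barcodes of 10 to 100 UMIs lie between them or near the high-mitochondrial barcodes, except for Gm26917, where they lie at 0.0221% or lower.

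The class of origin was read from markers that the rule did not use. A barcode was given the pigment, immune or stromal class when it held at least 3 UMIs of that list and more than of each other list, and the erythroid class when globin genes made up at least 5% of non-mt- UMIs. Pigment markers were Dct, Pmel, Mlana, Tyr, Mitf, Sox10 and 5 further genes of melanin synthesis and melanocyte identity. Of all members, 212 of 325 (65.2%) fell in the pigment class, 6 in the immune class, 3 in the stromal class and 0 in the erythroid class, and 104 (32.0%) stayed undetermined. Of the 319 matched barcodes, 170 were of the pigment class, 138 (43.3%) of the immune class and 9 undetermined. The members thus held few barcodes with immune markers at a depth where immune cells were common.

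By library, the pigment class made up 70.7% and 59.8% of nanocapsule members and 64.3% and 65.2% of control members, and the groups overlapped (difference of means 0.50 points, exact permutation p = 1.0). The immune class made up 1 of 116 and 2 of 107 nanocapsule members and 3 of 56 and 0 of 46 control members, and the last value allows a share of up to 6.52%. Matched barcodes were of the immune class in 39.7% and 45.5% of the Nanocapsule and 44.6% and 45.7% of the Control libraries. Over the 4 libraries the immune share averaged 2.02 ± 2.35% in members and 43.9 ± 2.85% in matched barcodes, and the undetermined share 31.7 ± 3.93% in members and 2.23 ± 2.15% in matched barcodes (SD, n = 4). Both differences had the same direction in 4 of 4 libraries (exact sign-flip p = 0.13, the smallest possible). Members also held fewer non-mt- UMIs than matched barcodes, given above, and the part of this in the undetermined share was not tested. Members were also drawn down to 500 non-mt- UMIs, with shallower ones left out. The pigment class then made up 34.3% and 34.1% of nanocapsule and 40.5% and 48.8% of control members. With 5 marker UMIs needed, it made up 47.4% and 38.3% of nanocapsule and 46.4% and 54.3% of control members. Matched barcodes were not drawn down, so the part of depth in their difference from members was not tested.

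**Figure D4:**
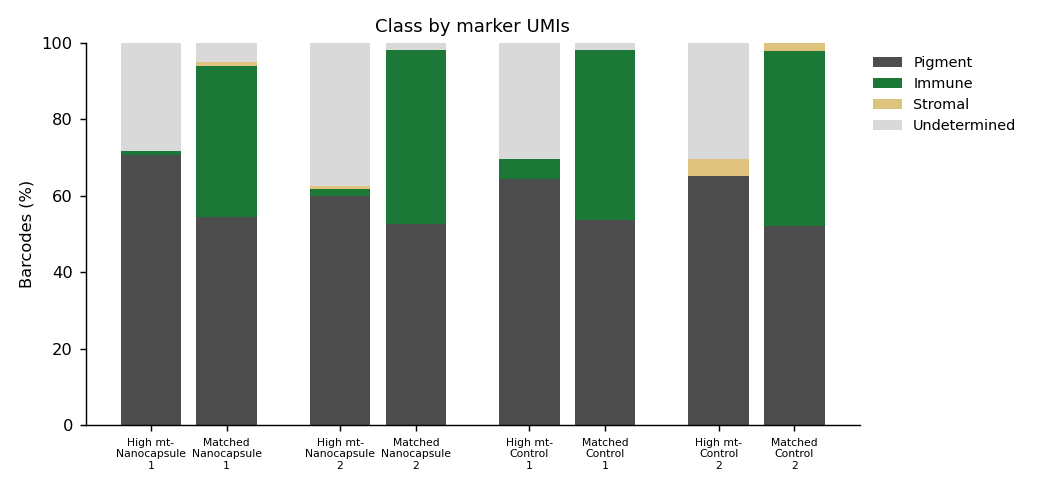
Share of barcodes of each class in high-mitochondrial and matched barcodes of the 4 libraries. Immune barcodes make up 39.7 to 45.7% of matched barcodes and 0 to 5.36% of high-mitochondrial barcodes, whereas the pigment share is 59.8 to 70.7% in high-mitochondrial barcodes and 52.2 to 54.3% in matched barcodes.

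Pigment UMIs in members were set against free RNA. At least 3 pigment UMIs were found in 71.6% and 60.7% of nanocapsule members and 66.1% and 67.4% of control members. The same was true of 15.2% and 6.52% of nanocapsule and 24.0% and 9.52% of control matched barcodes of the immune class, which should lack these genes and had higher median depths of 3625 and 4330 non-mt- UMIs in the Nanocapsule libraries and 1805 and 2822 in the Control libraries. As a level, pigment genes summed to 5660 and 5215 CPM (counts scaled to a fixed total of non-mt- UMIs) in nanocapsule members and 5411 and 18542 CPM in control members. Barcodes of 10 to 100 UMIs held 6113 and 7019 CPM in the Nanocapsule libraries and 8075 and 7659 CPM in the Control libraries, and matched barcodes of the pigment class held 7827 and 13258 CPM in the Nanocapsule and 9744 and 15119 CPM in the Control libraries. The members of 3 libraries were therefore at or below the level of near-empty barcodes, while matched barcodes of the immune class held 283 and 182 CPM in the Nanocapsule and 771 and 408 CPM in the Control libraries. The part of free RNA in the pigment class calls was not tested. In Control 2, the exception, 3 barcodes held 53.6% of the pigment UMIs, and the level without them was 10940 CPM, still above near-empty barcodes.

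Immune transcripts came from a handful of members. All 505 neutrophil marker UMIs of Nanocapsule 1 lay in 1 barcode and all 240 of Control 1 in 1 barcode, while Nanocapsule 2 had 5 and Control 2 had 0. In Nanocapsule 2, 2 barcodes held 622 of the 635 pan-immune UMIs, and in Control 1, 3 barcodes held 207 of 211. The 12 markers of T and NK cells summed to 0 and 1 UMI in nanocapsule members and 0 and 0 in control members, and the 7 B cell markers to 0 and 1 UMI in nanocapsule members and 18 and 0 in control members. The defining T cell genes Cd3d, Cd3e and Cd3g were at 0 in the members of every library. Matched barcodes held 486 and 681 UMIs of the T and NK list in the Nanocapsule and 13 and 186 in the Control libraries.

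Members were next compared with matched barcodes across all non-mt- genes, in sums per library with edgeR's quasi-likelihood test and BH adjustment. Of 3437 genes tested, 660 (19.2%) passed an adjusted p of 0.05, with 318 (9.25%) higher and 342 (9.95%) lower in members. The immune class was 2.02% of members and 43.9% of matched barcodes on average over the libraries. The pan-immune markers that set this class include lymphocyte genes such as Cd3d, Cd79a and Nkg7. All 6 tested genes of the T and NK list and all 7 of the B cell list fell, as did 10 of 19 pan-immune genes, 9 of 17 genes of MHC class I presentation and 3 of 7 genes of the interferon gamma response, beside a median of -0.08 (log2) over all genes tested. Ccl5, a T and NK cell chemokine, had 0 and 1 UMI in nanocapsule members and 0 and 0 in control members, against 499 and 1038 in nanocapsule and 3 and 219 in control matched barcodes. Nkg7, a cytotoxic granule protein, had 0 UMIs in all members and 155 and 213 in nanocapsule and 5 and 57 in control matched barcodes, at least 65.9-fold lower in members on a floor of 3 UMIs over the 4 libraries together. H2-Q7, Il2rb, Gimap3, Satb1, Arg1, Skap1, Napsa and Iglc3 also had 0 UMIs in members and were at least 35.9-fold, 33.7-fold, 30.5-fold, 23.5-fold, 22.1-fold, 30.1-fold, 22.2-fold and 24.1-fold lower. Genes at 0 in all members passed the filter on low counts through the matched sums alone, so they could only fall. The 342 falls include such genes, and these falls are a description. The part of the class mix in any of these falls was not tested, and the comparison was therefore repeated within the pigment class. The count was 412 without Nanocapsule 1 and 1156 without Control 1.

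Among the 10 largest rises in that fit were C430049B03Rik, Zfp575, Gphn, Tmtc2, Gm26917, Il1rapl1, Magi1, Pde10a and Aire. Il1rapl1, a synaptic membrane protein of the interleukin 1 receptor family, had 963 and 1860.1 CPM in nanocapsule and 272 and 902 CPM in control members, against 44.9 and 54.9 CPM in nanocapsule and 14.0 and 38.5 CPM in control matched barcodes, a log2 fold of 4.58 ± 0.33 (SE; edgeR adjusted p = 9.23e-07). Tmtc2 rose by 4.98 ± 0.37 on the log2 scale. The member sum of every library lay above all matched sums for both genes. Apart in each treatment, 346 genes (10.1%) passed in Nanocapsule, 167 higher (4.86%) and 179 lower (5.21%), and 155 (4.51%) passed in Control, 95 higher (2.76%) and 60 lower (1.75%). The difference between treatments passed for 0 of 3437 (0.0%; 115 genes, 3.35%, at an unadjusted p under 0.05). Libraries left out moved these counts widely: the Nanocapsule count was 150 without Nanocapsule 1, 815 without Control 1 and 776 without Control 2, and the Control count was 289, 295, 512 and 95 without Nanocapsule 1, Nanocapsule 2, Control 1 and Control 2. The difference passed for 9, 4, 30 and 8 genes in these same fits. Some of the named genes called over all classes lost the call in at least 1 such fit. Of the largest rises and falls named here, only Magi1 did, without Control 2. Each such fit leaves 1 library in a treatment and estimates the spread anew, so a call kept in it is no stricter check.

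Within the pigment class, 146 nanocapsule and 66 control members were set against as many matched barcodes of that class. Malat1, Jun, Fos, Dnajb1 and Vegfa were higher in the members and kept the call with any 1 library left out. Named genes that fell, such as Mcm2, Atp5b, Gpx1 and Prdx1, each lost the call without at least 1 library. Of 2375 genes tested, 410 (17.3%) passed, with 313 (13.2%) higher and 97 (4.08%) lower, and the median log2 fold over all genes was -0.00. No list of another cell type had more than 1 gene with enough UMIs to test, Apoe of the macrophage list (0.59 ± 0.30, adjusted p = 0.168). The count was 76 without Nanocapsule 1, 122 without Nanocapsule 2, 1039 without Control 1 and 103 without Control 2, and the calls of the full fit kept their sign in 405 of 405, 409 of 409, 410 of 410 and 407 of 410 genes testable there. With 1 library left in a treatment, that library is assumed to vary like the others. The spread is estimated anew in such a fit, so a call kept in it is no stricter check than the full fit.

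Nuclear-retained RNAs were the list with the highest median, 2.16 over 4 tested genes, of which Malat1 and Neat1 rose and 0 fell. Of all genes tested in the pigment class, 13.2% rose and 4.08% fell. Malat1, an abundant noncoding RNA of nuclear speckles, had 10191 and 2338 CPM in nanocapsule and 4363 and 4375 CPM in control members, against 937 and 321 CPM in nanocapsule and 673 and 635 CPM in control matched barcodes. The member sum of each library lay above all matched sums, with a log2 fold of 2.95 ± 0.24 (adjusted p = 8.58e-08). The log2 fold was 2.69 to 2.97 with any 1 library left out. Neat1, the scaffold RNA of paraspeckles, had 192 and 27.7 CPM in nanocapsule and 162 and 234 CPM in control members, against 32.2 and 7.64 CPM in nanocapsule and 0 and 35.3 CPM in control matched barcodes (2.90 ± 0.63, adjusted p = 0.00518, but 0.480 without Nanocapsule 1), and Nanocapsule 2 members lay within the range of matched barcodes. The Malat1 sums do not describe the typical member. In all classes together Malat1 made no call (0.73 ± 0.35, adjusted p = 0.201). There the median member held 0 Malat1 UMIs in each library, and only 36.2% and 31.7% of nanocapsule and 39.3% and 28.3% of control members held any, against 59.5% and 66.3% of nanocapsule and 64.3% and 67.4% of control matched barcodes.

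Immediate early genes, which are transcribed within minutes of a stimulus, had a median of 1.79 over 6 tested genes, and 4 rose and 0 fell. The share of rises over all genes tested in the pigment class was 13.2%. Jun, a subunit of the transcription factor AP-1, had 671 and 650.2 CPM in nanocapsule and 762 and 391 CPM in control members, against 122 and 115 CPM in nanocapsule and 133 and 0 CPM in control matched barcodes (2.93 ± 0.39, adjusted p = 4.59e-05). Its partner Fos had 418 and 470.4 CPM in nanocapsule and 946 and 352 CPM in control members, against 80.5 and 64.9 CPM in nanocapsule and 316 and 17.6 CPM in control matched barcodes (2.43 ± 0.34, adjusted p = 9.69e-05). On this scale the library sums of members and matched barcodes did not overlap for either gene. With any 1 library left out, the log2 fold was 2.42 to 5.44 for Jun and 2.01 to 3.13 for Fos. As plain CPM (over all non-mt- UMIs, without scaling between libraries) Fos did overlap. It then had 274 and 293 CPM in nanocapsule and 796 and 260 CPM in control members, against 322 CPM in Control 1 matched barcodes. Junb (2.13 ± 0.69, adjusted p = 0.0429) and Jund (1.08 ± 0.32, adjusted p = 0.0294) rose too, but their adjusted p came to 0.458 without Control 1 and 0.692 without Control 1. Over all classes, 1 of 14 tested genes was higher (Jun) and 5 were lower (Junb, Btg2, Zfp36, Dusp1 and Klf2), with a median of -0.92. In that fit 9.25% of all genes tested were higher and 9.95% lower. On average over the 4 libraries, 2.02% of members and 43.9% of matched barcodes were immune there. There Junb fell by 2.31 ± 0.44 (adjusted p = 0.00584) and Klf2 by 3.51 ± 0.53 (adjusted p = 0.00179), and the part of the class mix in this was not tested.

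Of the cytosolic heat shock proteins, 4 of 9 tested genes rose and 0 fell, with a median of 0.19. Rises made up 13.2% of all genes tested. The co-chaperone Dnajb1 had 287 and 304 CPM in nanocapsule and 369 and 273 CPM in control members, against 103 and 57.3 CPM in nanocapsule and 51.0 and 17.6 CPM in control matched barcodes (2.56 ± 0.37, adjusted p = 1.06e-04, at most 0.0217 with any 1 library left out). Hspa1b, an inducible Hsp70, had 287 and 152 CPM in nanocapsule and 46.2 and 78.1 CPM in control members, against 35.4 and 3.82 CPM in nanocapsule and 0 and 0 CPM in control matched barcodes (4.81 ± 1.01, adjusted p = 0.00476, but 0.107 without Control 2). The member sum of every library was above all matched sums for both genes. Among all members, 1 barcode held 14 of the 33 Hspa1b UMIs of Nanocapsule 1 and another 25 of the 36 of Nanocapsule 2. Bag3 (2.64 ± 0.68, adjusted p = 0.0134) and Hsph1 (1.84 ± 0.43, adjusted p = 0.00768) rose as well, and their adjusted p came to 0.534 without Nanocapsule 1 and 0.124 without Nanocapsule 1. The endoplasmic reticulum chaperones, which answer misfolded protein in another compartment, had 0 calls among 13 tested genes and a median of 0.13.

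Among hypoxia and glycolysis genes, 5 of 16 tested genes rose and 0 fell, with a median of 0.18, beside 13.2% rises over all genes tested. Vegfa, the angiogenic growth factor induced by low oxygen, had 1106 and 443 CPM in nanocapsule and 762 and 371 CPM in control members, against 213 and 141 CPM in nanocapsule and 143 and 52.9 CPM in control matched barcodes (2.30 ± 0.31, adjusted p = 5.36e-05, at most 0.0298 with any 1 library left out). The library sums of members and matched barcodes did not overlap for Vegfa. Pdk1, which keeps pyruvate out of mitochondrial oxidation, rose by 1.89 ± 0.42 on the log2 scale, hexokinase Hk2 by 1.47 ± 0.35 and the collagen hydroxylase P4ha1 by 1.48 ± 0.40. The adjusted p of these 3 genes came to 0.146 without Control 1, 0.175 without Nanocapsule 1 and 0.390 without Nanocapsule 1. The glucose transporter Slc2a1 was the other gene that passed. Of the integrated stress response, 1 of 7 tested genes rose, near the 13.2% over all genes tested. It was Ddit4, an inhibitor of mTORC1 signalling (1.34 ± 0.36, adjusted p = 0.0184). Its log2 fold was 0.81 to 1.83 with any 1 library left out, and the call was lost without Control 2.

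Of 26 tested nuclear-encoded subunits of the respiratory chain, measured within the non-mt- UMIs, 1 rose, 3 fell and 22 made no call. The median was -0.42, with 2 genes above 0. The shares over all genes tested were 13.2% for rises and 4.08% for falls. Atp5b, the catalytic beta subunit of ATP synthase, had 801 and 1121 CPM in nanocapsule and 969.5 and 859 CPM in control members, against 1819 and 1574 CPM in nanocapsule and 1428 and 2231 CPM in control matched barcodes (-0.91 ± 0.26, adjusted p = 0.0247). The member sum of every library lay below all matched sums. Uqcrc2 of complex III (-1.38 ± 0.36, adjusted p = 0.0154) and Ndufa4 (-0.79 ± 0.26, adjusted p = 0.0419) fell, and Ndufa13 of complex I rose (1.01 ± 0.28, adjusted p = 0.0207). Each of these 4 calls was lost in at least 1 fit with a library left out, the largest adjusted p being 0.663 without Nanocapsule 1 for Atp5b, 0.316 without Nanocapsule 1 for Uqcrc2, 0.622 without Nanocapsule 1 for Ndufa4 and 0.722 without Nanocapsule 1 for Ndufa13. Among 8 mitochondrial chaperones, proteases and import genes, the matrix protease Lonp1 rose (0.93 ± 0.31, adjusted p = 0.0460) and the chaperone Hspd1 fell (-0.99 ± 0.31, adjusted p = 0.0330), and these came to 0.570 without Nanocapsule 1 and 0.540 without Nanocapsule 1. None of 4 tested mitophagy genes, which mark mitochondria for degradation, passed. The autophagy receptor Sqstm1 had 679 and 747 CPM in nanocapsule and 900.3 and 566 CPM in control members, against 808 and 898 CPM in nanocapsule and 704 and 441 CPM in control matched barcodes (adjusted p = 0.903).

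Antioxidant and iron genes had a median of -0.47 over 10 tested genes, with 2 falls and 0 rises, beside 4.08% falls over all genes tested. The peroxidases Gpx1 (348 and 457 CPM in nanocapsule and 346 and 254 CPM in control members, against 692 and 783 CPM in nanocapsule and 918 and 873 CPM in control matched barcodes) and Prdx1 (1045 and 1217 CPM in nanocapsule and 1477 and 957 CPM in control members, against 2016 and 2124 CPM in nanocapsule and 1816 and 2319.6 CPM in control matched barcodes) fell by 1.24 ± 0.29 and 0.83 ± 0.25 on the log2 scale (adjusted p = 0.00782 and 0.0294, but 0.474 without Nanocapsule 1 and 0.622 without Nanocapsule 1). The library sums of members did not overlap with those of matched barcodes for either gene. Heme oxygenase Hmox1 made no call (-1.26 ± 0.50, adjusted p = 0.0863).

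Of the cell cycle genes of DNA replication, 2 of 8 tested genes fell and 0 rose, with a median of -0.86. Among all genes tested, 4.08% fell and 13.2% rose. The helicase subunit Mcm2 had 78.4 and 41.5 CPM in nanocapsule and 46.2 and 39.1 CPM in control members, against 129 and 233 CPM in nanocapsule and 133 and 203 CPM in control matched barcodes (-1.69 ± 0.46, adjusted p = 0.0191, but 0.178 without Control 2), with every member value below every matched value. The ribonucleotide reductase subunit Rrm2 fell by 1.20 ± 0.35 (adjusted p = 0.0267, but 0.286 without Nanocapsule 1). In mitosis, 2 of 9 tested genes rose and 1 fell, with a median of -0.65. The proliferation antigen Mki67 had 200.3 and 249 CPM in nanocapsule and 277 and 566 CPM in control members, against 29.0 and 95.5 CPM in nanocapsule and 102 and 106 CPM in control matched barcodes (1.99 ± 0.35, adjusted p = 8.07e-04, but 0.124 without Nanocapsule 1), and the kinetochore gene Cenpf rose by 1.29 ± 0.38 (adjusted p = 0.0264, but 0.352 without Nanocapsule 1). Ube2c, which helps degrade mitotic cyclins, had 139 and 55.3 CPM in nanocapsule and 69.3 and 39.1 CPM in control members, against 251 and 294 CPM in nanocapsule and 367 and 203 CPM in control matched barcodes (-1.89 ± 0.39, adjusted p = 0.00404, but 0.0627 without Nanocapsule 2).

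Ribosomal protein genes had a median of 0.15 over 26 tested genes, and 3 rose and 0 fell. Over all 2375 genes tested, 13.2% rose and 4.08% fell, so the list did not stand out by its count of rises. Among those that rose, Rps27 had 2578 and 2518 CPM in nanocapsule and 1801 and 2070.2 CPM in control members, against 1188 and 1096 CPM in nanocapsule and 694 and 1376 CPM in control matched barcodes, with no overlap (1.06 ± 0.24, adjusted p = 0.00718, but 0.581 without Nanocapsule 1). Another was Rpl37 (0.78 ± 0.22, adjusted p = 0.0232, but 0.716 without Nanocapsule 1). None of 5 tested genes of MHC class I presentation passed, and B2m had 209 and 401 CPM in nanocapsule and 185 and 410.1 CPM in control members, against 489 and 668 CPM in nanocapsule and 163 and 635 CPM in control matched barcodes, with overlap (adjusted p = 0.137). Of 10 tested pigment genes, whose sum chose the class, Dct alone passed (0.88 ± 0.24, adjusted p = 0.0194, but 0.783 without Nanocapsule 1).

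The largest rises in the pigment class were Aire, Hspa1b, Jarid2, C430049B03Rik, Gphn, Zfp575, Gm47283, Il1rapl1, Gm19951 and Tmtc2. Matched barcodes were at 0 in both Control libraries for Aire and Hspa1b. They were at 0 in Control 1 for Zfp575, Gm19951 and Tmtc2 and in Control 2 for C430049B03Rik. The fitted folds of these 0-based genes are no bound. Gphn had 31652 and 37698 CPM in nanocapsule and 10827 and 10332 CPM in control members, against 1230.0 and 1008 CPM in nanocapsule and 816 and 635 CPM in control matched barcodes (4.41 ± 0.23, adjusted p = 2.81e-10). Jarid2, a subunit of Polycomb repressive complex 2, had 3937 and 4856 CPM in nanocapsule and 900.3 and 586 CPM in control members, against 158 and 42.0 CPM in nanocapsule and 10.2 and 115 CPM in control matched barcodes (4.56 ± 0.45, adjusted p = 2.18e-06). For both genes the member sum of every library exceeded all matched sums. With any 1 library left out, the log2 fold was 4.16 to 4.45 for Gphn and 3.62 to 5.84 for Jarid2. Aire, best known as a regulator of self antigens in the thymus, had 244 and 96.8 CPM in nanocapsule and 92.3 and 254 CPM in control members, against 35.4 and 3.82 CPM in nanocapsule and 0 and 0 CPM in control matched barcodes (5.36 ± 0.82, adjusted p = 2.85e-04, but 0.0527 without Control 2).

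The largest falls were Racgap1, Psma1, Trp53, Ube2c, Dpy30, Mcm2, Echs1, Snrpa, Lrrc59 and Tubb4b. Racgap1, which is needed for cytokinesis, had 34.8 and 55.3 CPM in nanocapsule and 0 and 0 CPM in control members, against 90.2 and 111 CPM in nanocapsule and 153 and 194 CPM in control matched barcodes (-4.36 ± 0.86, adjusted p = 0.00306, but 0.0528 without Control 2). Its fitted fold rests on control members at 0 and is no bound. The proteasome subunit Psma1 fell by 2.38 ± 0.58 (adjusted p = 0.0105, but 0.104 without Control 2), and Trp53, which encodes the p53 tumour suppressor, had 26.1 and 41.5 CPM in nanocapsule and 46.2 and 0 CPM in control members, against 135 and 84.0 CPM in nanocapsule and 153 and 97.0 CPM in control matched barcodes (-2.13 ± 0.59, adjusted p = 0.0209, but 0.358 without Nanocapsule 1). Apart from Ube2c and Mcm2, described above, the other falls ranged from -1.55 to -1.73, and each lost its call without at least 1 library.

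In the pigment class the median genomic span was 58.0 kb for genes that rose and 10.4 kb for genes that fell, beside 18.1 kb for all tested genes with an annotated span. Of 235 genes over 100 kb, 109 rose and 0 fell, with a median log2 fold of 1.36 (1.36 in Nanocapsule and 1.21 in Control). Of 795 genes under 10 kb, 61 rose and 46 fell, with a median of -0.24, and genes of 10 to 30 kb had a median of -0.26 and those of 30 to 100 kb of 0.34. Over all classes, of 457 genes over 100 kb 91 rose and 62 fell, with a median of 0.21, and of 1048 genes under 10 kb 81 rose and 135 fell, with a median of -0.21. Genes not coding for protein were 5.45% of the rises and 0% of the falls, beside 1.39% of all tested genes.

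**Figure D5:**
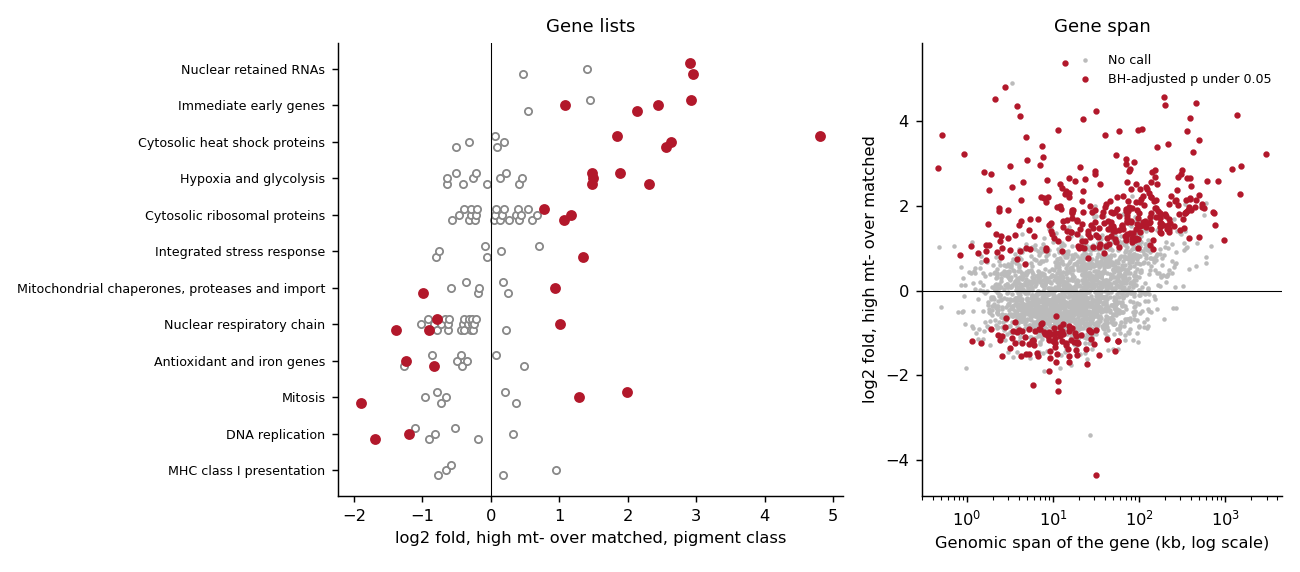
Log2 fold of high-mitochondrial over matched barcodes in the pigment class; left, genes of the lists, red where the BH-adjusted p was under 0.05 and open grey where it was not; right, every tested gene against its genomic span on a log axis, in the same colours. Malat1 and Neat1 lie at 2.95 and 2.90 in the top row, and among genes over 100 kb all 109 calls lie above 0.

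The levels of the pigment class members were also set beside barcodes of 10 to 100 UMIs. This is a description, since the rises and falls were called from the same member levels. The part of free RNA in the rises was not tested. Of the 313 genes that rose over matched barcodes, 149 (47.6%) were above the near-empty level in all 4 libraries, against 256 of all 2375 tested genes (10.8%). Malat1 was among them, with 6672 and 1458 CPM (plain, over all non-mt- UMIs) in nanocapsule members and 3668 and 3234 CPM in control members, against 1390 and 1310 CPM in nanocapsule and 1534 and 1163 CPM in control near-empty barcodes. Jun was above that level in 4 of 4 libraries as well, but Fos in 2 and Lars2 in 2. None of the 97 genes that fell was above the near-empty level in all 4 libraries, and 94 were below it in every library.

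Apart in each treatment, 183 of 2375 genes (7.71%) passed in Nanocapsule, 167 higher (7.03%) and 16 lower (0.674%). In Control, where fewer barcodes were summed, 63 (2.65%) passed, 61 higher (2.57%) and 2 lower (0.0842%). The difference between treatments passed for 0 genes (0.0%; 93, or 3.92%, at an unadjusted p under 0.05), so no gene was shown to respond differently. The log2 fold of Malat1 was 3.17 ± 0.34 in Nanocapsule and 2.74 ± 0.34 in Control, that of Jun 2.47 ± 0.47 in Nanocapsule and 3.38 ± 0.62 in Control, that of Vegfa 2.05 ± 0.39 in Nanocapsule and 2.56 ± 0.48 in Control and that of Mki67 1.99 ± 0.47 in Nanocapsule and 1.99 ± 0.50 in Control. Among the 5 genes with the smallest p of the difference were Gm42418 (1.17 ± 0.33), Acsl3 (-2.47 ± 0.70), Zc3h7a (2.06 ± 0.59) and Pde4d (-2.85 ± 0.84), as Nanocapsule minus Control in log2 fold, and each had an adjusted p of 0.995. The Nanocapsule count was 28 without Nanocapsule 1, 26 without Nanocapsule 2, 697 without Control 1 and 370 without Control 2. The Control count was 26 and 26 without Nanocapsule 1 and 2, 493 without Control 1 and 11 without Control 2. The difference passed for 85 genes without Control 1 and for 0 without any other library.

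Members were not uniform in their mt- share. As a description, genes per barcode fell along the share: in the bins of 20 to 40%, 40 to 60%, 60 to 80% and 80 to 100% mt- the median was 1268, 480, 280 and 269 genes in Nanocapsule 1 and 1000, 360.5, 346 and 249 in Nanocapsule 2. It was 1095.5, 523, 297 and 225.5 in Control 1 and 786, 494, 373.5 and 214.5 in Control 2. Malat1 stood at 9031, 2052, 478 and 0 CPM along these bins in Nanocapsule 1 and 1883, 1152, 304 and 300 CPM in Nanocapsule 2. In Control 1 it stood at 4386, 2379, 576 and 673 CPM and in Control 2 at 3064, 4995, 227 and 0 CPM. Malat1 was thus highest below 60% mt-, and above 60% its level in each library was under that of the near-empty barcodes given above. Lars2 ran the other way, at 8649, 41075, 71407 and 53190.1 CPM in Nanocapsule 1, 38099, 50253.8, 80333 and 71744 CPM in Nanocapsule 2, 6817, 27313, 61564 and 39031 CPM in Control 1 and 8850.4, 19700.3, 45788 and 72745 CPM in Control 2. It was lowest at 20 to 40% in all 4 libraries. The bins of 80 to 100% held 4 to 25 barcodes, and the bin of 20 to 40% held 117820 of the 210408 non-mt- UMIs of members in Nanocapsule 1, so the sums over members weigh it most there.

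The number of different genes at a fixed depth is given as a description, since total UMIs and gene number entered the choice of members. Each barcode was thinned to 500 non-mt- UMIs, which left out 8 and 16 nanocapsule members and 14 and 5 control members that were shallower, and 0 matched barcodes. The median was 244.5 and 223 genes in nanocapsule members and 304.5 and 300 in control members, against 362 and 365 in nanocapsule and 368 and 360 in control matched barcodes. The member median of every library lay below all matched medians, at 268 ± 40.6 genes in members and 364 ± 3.50 in matched barcodes (SD, n = 4 libraries, difference -95.8). Nanocapsule members (234 ± 15.2) also lay below control members (302 ± 3.18, SD, n = 2 each). Without thinning, the same members had 430.5 and 409 genes in nanocapsule and 526.5 and 568 in control. In the pigment class the thinned medians were 290 and 264.5 in nanocapsule and 326 and 331 in control members.

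Nanocapsule and control members were compared with each other in sums over all members of each library. Of 1590 genes tested, 0 (0.0%) passed in edgeR's quasi-likelihood test, with 29 (1.82%) higher and 39 (2.45%) lower at an unadjusted p under 0.05. DESeq2 called 3 genes. The libraries of the treatments did not overlap for 501 genes (31.5%), 242 higher (15.2%) and 259 lower (16.3%). The most abundant genes described above were higher in nanocapsule members without passing. Camk1d had 14242 and 17579.5 CPM in nanocapsule members and 3637 and 5410.4 CPM in control members (log2 1.81 ± 0.29, SE; adjusted p = 0.0908). Jarid2 (1.79 ± 0.30; adjusted p = 0.0908), Gphn (1.54 ± 0.28; adjusted p = 0.141) and the nuclear import receptor Kpna1 (1.93 ± 0.44; adjusted p = 0.515) followed, all with no overlap. In near-empty barcodes Gphn also was higher in the Nanocapsule libraries, at 1.63% and 1.60% of non-mt- UMIs, against 0.818% and 1.01% in the Control libraries, and the part of that difference in the members was not tested.

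Hmox1, the heme-degrading enzyme induced by oxidative stress, had 20 and 31 UMIs in nanocapsule members and 2 and 0 in control members (log2 3.55 ± 0.94, a fitted value; adjusted p = 0.581). These UMIs came from 11 and 14 nanocapsule barcodes and 2 and 0 control barcodes. Hmox1 had the same order in other barcodes, at 213 and 294 CPM in nanocapsule and 154 and 57.7 CPM in control matched barcodes, and at 252 and 235 CPM without scaling between libraries in nanocapsule and 75.4 and 65.7 CPM in control near-empty barcodes. The part of that difference in the members was not tested. The inducible chaperone Hspa1b had 33 and 36 UMIs in nanocapsule members and 2 and 4 in control members, and the MHC class I subunit B2m had 28 and 109 UMIs in nanocapsule members and 19 and 22 in control members (adjusted p = 0.994). Neither treatment difference passed. Malat1 overlapped between treatments, at 7668 and 1895 CPM in nanocapsule members and 3335 and 3622 CPM in control members. Of the lists, the 26 ribosomal genes had a median of 0.18 and the 11 tested endoplasmic reticulum chaperones one of -1.71, beside 0.02 over all genes. In Control 2, 3 barcodes held 66.5% of the chaperone UMIs. The pigment genes had a median of -0.66. Of these genes, 2 of 10 had no overlap, both lower in nanocapsule members. Over all genes tested, 31.5% had no overlap and 16.3% were lower without overlap. With a library left out the test called 8 genes without Nanocapsule 1, 7 without Nanocapsule 2, 177 without Control 1 and 13 without Control 2.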

How the data were processed

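Single-cell RNA-seq of tumour cells was made in 4 libraries, 2 Nanocapsule and 2 Control, grouped by their treatment labels alone, since the short codes in the matrix names do not spell out a treatment and are not explained in the sources used here. The deposited matrices hold unfiltered UMI counts per gene and barcode. The submitters' processing notes name Cell Ranger 2.1.1 and the matrix headers name version 4, so the version used is unsure, and how strand entered the counting is not given in the sources used here. The matrices held 668423 and 683582 barcodes and 108441772 and 105967866 UMIs in the Nanocapsule libraries, and 688565 and 628752 barcodes and 140491491 and 98943390 UMIs in the Control libraries.

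The members, gene lists and named-gene rule were chosen with earlier results of these data known. Each member was matched to 1 barcode of 1 to 10% mt- share from its library within bins of 0.5 log2 of total UMIs, which matched 319 of 325 members, since Nanocapsule 2 had matches for 101 of 107. No doublets were called. Non-mt- counts were summed per library, filtered with filterByExpr, scaled by TMM and tested with edgeR 4.0.16 (quasi-likelihood, robust, BH threshold 0.05), with the library as a block for members against matched barcodes and the member term fitted apart in each treatment. CPM values of named genes are on the TMM scale unless called plain. DESeq2 1.42.0 was an alternative, in R 4.3.3. Python 3.11.15 with scipy 1.17.1 gave exact permutation tests over libraries. Named genes were the 10 largest rises and 10 largest falls among genes that passed with at least 20 CPM in members or matched barcodes and 1 direction in all 4 libraries, the 5 with the smallest p where fewer than 5 passed, up to 4 passing members of each list by smallest p or the 2 most abundant where none passed, and 7 genes fixed by name beside the mt- genes. Some genes that this rule names are not reported here. Gene positions and spans came from GENCODE M21 (GRCm38), where 32158 of 32285 gene IDs matched. On simulated data with 200 changed genes, 100% of those with a log2 change of 2 and 60% of those with 1 were recovered for all classes. The shares were 100% and 63% for the pigment class, and 91% and 40% for nanocapsule against control members. False calls were 8 of 168, 9 of 172 and 3 of 134. These counts had a fixed dispersion of 0.05, and only genes with a mean of at least 20 UMIs were changed. The spread of the real sums was not copied, so the shares do not give the recovery in the real data. Alternatives changed the UMI minimum, the mt- threshold, the matching, the filter, the scaling and tool and the libraries used.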

Additional observations from a re-analysis of the deposited data

Results flagged for a closer look

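Barcodes with at least 1500 UMIs and more than 20% mt- UMIs but fewer than 200 genes fell outside the rule. They were 1.06% and 3.18% of barcodes of at least 1500 UMIs in the Nanocapsule libraries and 0.941% and 0.212% in the Control libraries, so that both Nanocapsule values lay above both Control values (means 2.12 ± 1.5% and 0.576 ± 0.516%, SD, n = 2 each; exact permutation p = 0.333, the smallest possible). They numbered 123 in all, 26 and 56 in the Nanocapsule and 37 and 4 in the Control libraries.

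For 3 genes the treatments moved apart between members and matched barcodes. Cxcl10, a chemokine induced by interferon gamma, had a difference of 7.42 ± 1.14 in log2 fold between Nanocapsule and Control (edgeR adjusted p = 0.0909). It had 10 and 33 UMIs in nanocapsule and 1 and 1 in control members, against 0 and 14 in nanocapsule and 70 and 6 in control matched barcodes, and 31 of the 33 UMIs of Nanocapsule 2 lay in 1 barcode. Nr2f2 had a difference of 6.16 ± 1.68 (adjusted p = 1.0), from 15 and 6 UMIs in nanocapsule and 1 and 1 in control members, against 3 and 0 in nanocapsule and 5 and 12 in control matched barcodes. Sqstm1, in the pigment class, was lower in members of both Nanocapsule libraries and higher in members of both Control libraries, with a difference of -0.61 ± 0.55 (adjusted p = 0.995). None of these differences passed the test.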

How the results depend on the processing

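The higher member share in Nanocapsule kept its direction under 11 of 11 alternatives (2.81 to 4.15 points with a library left out). The treatment difference in the pigment share of members did not: it was -12.8 points at a minimum of 3000 UMIs, -5.72 at 500, -7.52 with 5 marker UMIs, -10.5 after thinning, and -4.94 to 5.94 with a library left out, the lowest without Nanocapsule 1. The immune share difference ranged from -3.99 to 1.37, the highest without Control 1. For genes at fixed depth the range was -108 to -80.3. In the mt- make-up, 8 to 11 genes kept 1 direction with a library left out and 5 in the pigment class alone, and mt-Nd4 turned to 0.31 above 30% mt- and ranged from -0.16 to 0.19 with a library left out, positive without Nanocapsule 2 and without Control 1.

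Counts over all classes in 4 libraries were 1003 without a filter, 290 with DESeq2, 392 matched on non-mt- UMIs, 367 unmatched, and 412 to 1156 with a library left out. In Nanocapsule these were 540, 110, 133, 162 and 150 to 815, and 217 above 30% mt-. In Control they were 337 without a filter, 72 with DESeq2, 99 matched on non-mt- UMIs, 93 with another draw of matched barcodes and 95 to 512. The difference called 1 gene without a filter, 11 unmatched and 4 to 30 with a library left out. In the pigment class the counts were 189 with DESeq2, 239 above 30% mt-, 246 unmatched and 76 to 1039 with a library left out. In Nanocapsule they were 73 with DESeq2, 116 unmatched and 26 to 697. In Control they were 31 without a filter, 172 matched on non-mt- UMIs, 119 above 30% mt- and 11 to 493. The difference called 6 genes matched on non-mt- UMIs, 14 unmatched, 4 among barcodes of at least 1000 non-mt- UMIs (added after seeing the data) and 0 to 85 with a library left out. Between treatments in members, 13 genes passed without a filter, 3 with DESeq2, 3 in pigment members alone and 7 to 177 with a library left out.

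Unmatched comparison barcodes, which were deeper, turned the log2 fold of Magi1 (-0.62), Pde10a (-0.28), Dct (-0.20), Sox10 (-0.60), Tyr (-0.74), Pmel (-0.54), Mlana (-0.77), Ftl1 (-0.10), Top2a (-0.43), Ctss (0.29), Klf2 (0.57), Junb (0.98), Zfp36 (0.87), Dusp1 (0.84), H2-D1 (0.32) and Ptprc (1.66) over all classes, and of Dct (-0.0059) and Fos (-0.0774) in the pigment class. Pmel over all classes ranged from -0.28 (without Control 2) to 0.75. Between treatments in members, Gm26917 was -0.34 and Malat1 was -0.21 above 30% mt-, and B2m was -0.0764 in pigment members. With a library left out, Malat1 ranged from -0.80 (without Nanocapsule 1) to 1.23, B2m from -0.70 (without Nanocapsule 2) to 1.62, Dct from -1.14 to 0.57 and Pmel from -1.94 to 0.69, both highest without Control 2. The cause was not tested. Of 1852 further values of named genes, 1467 kept direction and call, 305 lost the call, 51 gained it and 29 turned.

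The labels' replicate numbers share only a number (correlation of deviations -0.07). With the replicate block, the member share differed by 3.48 points (exact permutation p = 0.5, the smallest possible), the counts were 616, 298 and 102 over all classes and 460, 224 and 76 in the pigment class (4 libraries, Nanocapsule, Control), and 0 genes passed between treatments. Members held at most 0.452% of the UMIs in a library's barcodes of at least 1500 UMIs, so low genes were not testable at this depth.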
